A study of Acomys cahirinus and Mus musculus with 10 samples.

Results

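RNA from the ear pinna of the spiny mouse *A. cahirinus* was compared between uninjured tissue (D0) and regenerating tissue taken 10 days after a 4-mm ear punch (D10). Every component of the authors' D10 table was used, which is 667087 of the 676820 components listed for *A. cahirinus* at any day. A component is a group of overlapping contigs that the *de novo* assembly treats as 1 gene.

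Both groups were sexually mature female *A. cahirinus*, and the methods give 3 animals per time point. The tissue was a flash-frozen ring that the methods place about 1 mm proximal to the healing margin. Epidermis, glands, dermis, cartilage, muscle, fat, nerve and vessels were thus measured together. D0 tissue is labelled uninjured, and the methods do not say where its ring lay. A difference in the part of the pinna taken and the day after injury cannot be told apart. Total RNA was depleted of ribosomal RNA and sequenced as strand-specific 50-bp paired reads. The punch was made under isoflurane anaesthesia, and the labels separate the groups by day after injury alone.

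Spiny mice are rodents that close ear holes by growing new tissue with skin, hair follicles and cartilage, where most mammals scar. In such regeneration, the epidermis migrates over the wound, leukocytes clear debris, and a mass of proliferating mesenchymal cells, the blastema, gathers at the margin within a provisional matrix. Fibronectin and tenascins are typical of that early matrix, while fibrillar collagens give mature dermis and scar their strength.

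Components carry no gene names, and each was named here by the *M. musculus* transcript that gave its best BLASTN hit. The 4 stretches of coding sequence below show what such a match looks like for genes at both ends of the comparison. Each is 90 bases, in frame, from a spiny mouse contig, followed by the same stretch of the *M. musculus* transcript, and capitals mark the spiny mouse bases that differ. *Mmp13* (collagenase 3), *Tnc* (tenascin C) and *Fn1* (fibronectin) were among the genes with the largest rises. *Pvalb* (parvalbumin, a calcium buffer of fast muscle fibres) was among those that fell furthest.
Mmp13, A. cahirinus: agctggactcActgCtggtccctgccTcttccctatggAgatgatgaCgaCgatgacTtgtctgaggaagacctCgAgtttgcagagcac
Mmp13, M. musculus: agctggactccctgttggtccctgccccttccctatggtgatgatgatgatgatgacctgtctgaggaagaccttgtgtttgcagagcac
Tnc, A. cahirinus: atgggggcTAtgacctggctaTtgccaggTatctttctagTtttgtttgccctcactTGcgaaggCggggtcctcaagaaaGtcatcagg
Tnc, M. musculus: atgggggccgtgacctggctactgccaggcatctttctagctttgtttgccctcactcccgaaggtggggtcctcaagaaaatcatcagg
Fn1, A. cahirinus: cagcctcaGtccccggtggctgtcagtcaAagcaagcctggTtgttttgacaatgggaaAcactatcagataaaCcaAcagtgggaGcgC
Fn1, M. musculus: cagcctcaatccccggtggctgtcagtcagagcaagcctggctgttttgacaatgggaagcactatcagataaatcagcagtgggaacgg
Pvalb, A. cahirinus: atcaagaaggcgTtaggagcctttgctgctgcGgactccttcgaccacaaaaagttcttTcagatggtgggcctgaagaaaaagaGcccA
Pvalb, M. musculus: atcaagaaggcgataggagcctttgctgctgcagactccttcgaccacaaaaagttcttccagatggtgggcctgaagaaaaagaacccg

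These stretches differed at 9 positions in *Mmp13* and *Tnc*, 8 in *Fn1* and 5 in *Pvalb*. Over the whole alignments the identities were 90.32%, 90.2%, 91.19% and 94.66%. Each stretch was picked for an identity nearest to that of its whole alignment, so their closeness is by choice. A name thus rests on sequence that is close to the *M. musculus* transcript and not the same.

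Of the components, 31273 were given a name, and they stand for 14786 genes. These named components held 61.7% of the normalized reads at D0 and 62.7% at D10. Where several components carried the same name, the most abundant one stood for the gene. The component of 1074 genes (7.26%) also held the sequence of another gene, which is said below where it touches a named gene.

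Levels are normalized reads per library, that is, reads divided by the size factor of their library. The authors' tables give ratios only. Group means were recovered by algebra from the D10 table, and the reads of the D0 libraries from the tables of all 4 days together. Among 13171 named genes with a mean over both groups of at least 10, reads in all 6 libraries were recovered for 5285. The 3 D0 libraries held 18659217, 16425723 and 14888621 reads. The libraries carry no labels, so library 1 to 3 is an order by size factor and links no library to an animal. Between the D0 libraries the median coefficient of variation was 6.07% over 9955 named genes with a D0 mean of at least 100. It was 6.01% over the D10 libraries for the 3055 named genes read in all 6 libraries with a D10 mean of at least 100. This second set is narrower, as it leaves out genes with a D10 mean alone.

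Principal components of the 6 libraries were taken over the 116409 components recovered in all of them with a mean of at least 10. Components with a D10 mean alone, abundant or not, are not among these. The first principal component held 61.9% of the variance and put the D0 libraries (-134 to -116) and the D10 libraries (121 to 129) at opposite ends. The second held 11.3% and set D0 library 3 (-103) apart from D0 libraries 1 and 2 (48.3 and 60.2). D0 library 3 was the lowest of the 3 in 16 of 16 interstitial collagens. Among 12 mast cell genes it was the lowest in 8 and the highest in 3. It was the highest in 14 of 18 immediate early genes and 5 of 5 red blood cell genes. Only these lists were counted, and the same shares over all named genes were not.

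A gene was called changed where the authors' EBSeq posterior probability of a difference was at least 0.95. Changes are log2 ratios of D10 over D0. At this threshold 14423 components (2.16%) were called, 8553 higher at D10 (1.28%) and 5870 lower (0.88%). Of the named genes, 4887 were called (33.1%), 3157 higher (21.4%) and 1730 lower (11.7%), and these shares are the background for every list below. A change of at least 2-fold was seen in 1014 of the genes called higher and 612 of those called lower. The median change of the 13327 named genes with a mean of at least 10 was 0.10, and list medians are read against that value.

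**Figure D1:**
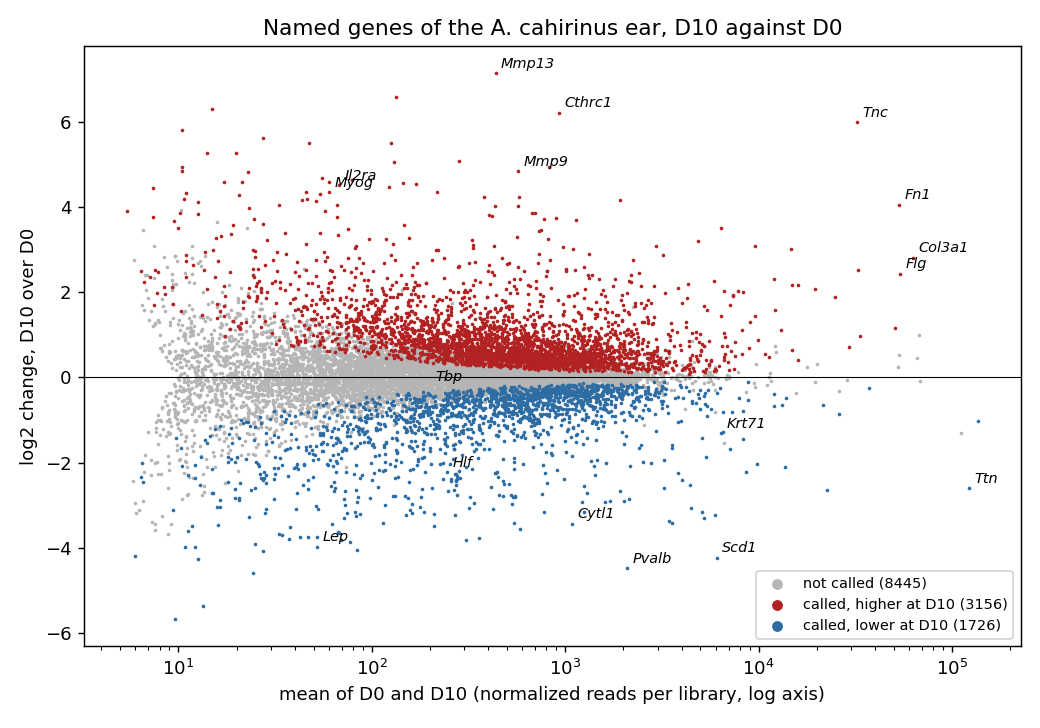
Each point is a named gene with a mean of at least 10 normalized reads at D0 or D10: the horizontal axis (log) is the mean of both groups and the vertical axis the log2 change of D10 over D0. Of the genes shown, 3156 were called higher (red) and 1726 lower (blue), and *Tnc*, *Fn1* and *Col3a1* lie high at the abundant end while *Ttn* and *Scd1* lie low.

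Of the 5285 genes read in all 6 libraries, the 918 called higher had every D10 library above every D0 library, and the 692 called lower had every D10 library below every D0 library. Values that do not overlap were also common in general, at 65.7% of the 5285 genes. A limma test of the same log2 values, with Benjamini-Hochberg adjustment over 116409 components, called all 1610 of these genes in the same direction as EBSeq and called 2986 in all. The limma standard errors and adjusted p-values below draw each gene's variance toward a trend over those components. Where a gene's libraries lie far apart, as for *Scd1* and *Lep*, both are smaller than those libraries alone would give.

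Of 16 interstitial collagens, 14 were called higher and 1 lower, with a median log2 change of 2.17. Together their components held 0.592% of the normalized reads at D0 and 2.714% at D10. The D0 libraries ranged from 0.442% to 0.710%, so the D10 share lay above each of them. In these bulk samples, here and in the lists below, a change in the number of cells of a type and a change in RNA per cell cannot be told apart.

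*Col5a2*, a chain of the collagen that sets fibril diameter, had the largest change of the list. Its D0 libraries held 1096, 1057 and 706 normalized reads and its D10 mean was 8768, a log2 change of 3.20. Its partner *Col5a1* rose from 3976, 3291 and 2395 to a mean of 26026 (3.01). The fibrillar chain *Col3a1* rose from 18908, 17362 and 10873 to 110038 (2.81). *Col11a1*, a fibril chain best known from cartilage, rose less (0.79), from a D0 mean of 1469 to 2541.

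For these abundant genes the D10 value is a mean of 3 libraries whose single values were not recovered. D0 library 3 was the lowest in each of them. *Col8a1*, a short-chain collagen of vessel walls and membranes, was the member called lower, from 2164, 1944 and 1449 to a mean of 627 (-1.56), with a match of 191 bp. *Col24a1* was not called (-0.42). The component of *Col1a2* also held *Col1a1* and *Il7r*, so its value of 2.52 is of a mixture.

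Of 20 genes for provisional and matricellular matrix, 13 were called higher and 1 lower (median 0.72). Their share of normalized reads was 0.640% at D0 and 1.790% at D10. *Fn1*, which links cells to the wound matrix, held 7513, 6222 and 4440 normalized reads at D0 and a mean of 100319 at D10 (4.05). *Tnc*, an anti-adhesive glycoprotein of wound margins and blastemas, held 1524, 898 and 558 at D0 and 63270 at D10 (5.99). *Spp1* (osteopontin) rose from 22.5, 21.5 and 16.1 to 414 (4.34).

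The list did not move as a block. *Thbs1*, an adhesive glycoprotein of platelets and wounds that activates TGF-beta, was lower at D10, with 9911, 9641 and 8217 at D0 and a mean of 5289 (-0.81). *Postn* (periostin) held 58542, 61151 and 47736 at D0 and 76099 at D10 and was not called (0.45). *Smoc1* had 42.3, 39.9 and 36.7 at D0 and 36.0, 43.6 and 27.9 at D10, overlapping groups, and was not called.

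**Figure D2:**
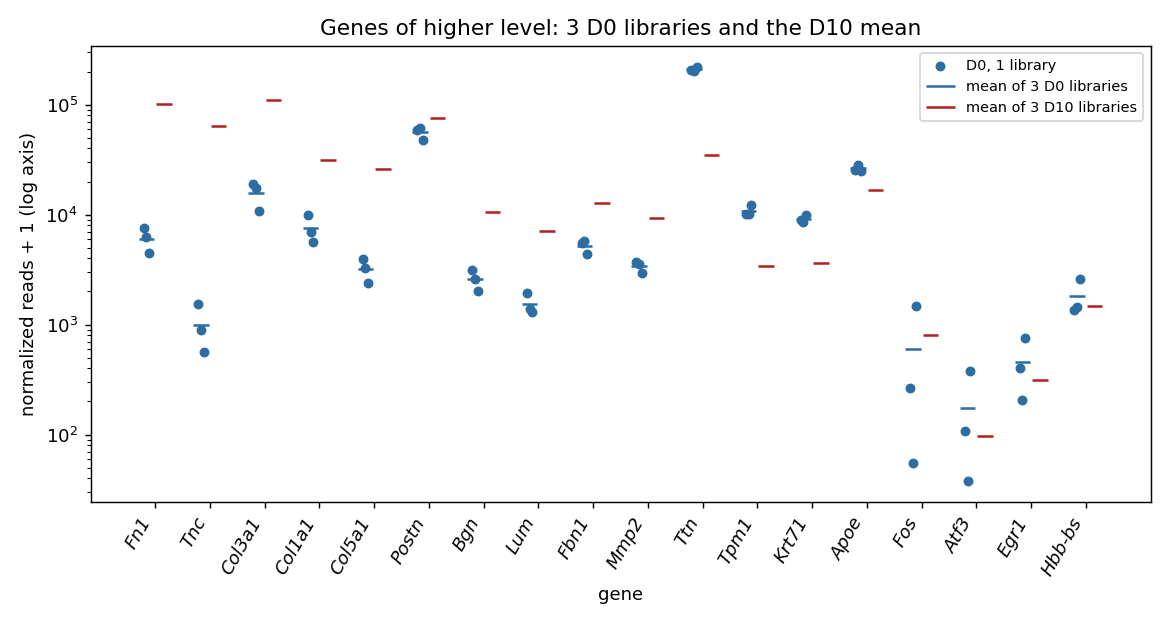
Normalized reads plus 1 on a log axis for genes of higher level: blue points are the 3 D0 libraries, blue lines their mean and red lines the mean of the 3 D10 libraries, whose single values are not shown. The D10 mean of *Fn1*, *Tnc*, *Col3a1* and *Col5a1* lies above every D0 library, that of *Ttn*, *Tpm1* and *Krt71* below, and the D0 libraries of *Fos*, *Atf3* and *Egr1* lie far apart.

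Of 21 genes that fold and cross-link collagen, 19 were called higher and 1 lower (median 1.24). *P4ha3*, a subunit of collagen prolyl 4-hydroxylase, rose from 61.4, 59.3 and 29.8 to a mean of 818 (4.02). The collagen chaperone *Serpinh1* rose from a D0 mean of 1057 to 4702 (2.15), and the collagen chaperone *Fkbp10* from 458 to 1762 (1.94). *Loxl4*, a lysyl oxidase, was the exception, with 5111, 5418 and 5533 at D0 and 1776 at D10 (-1.59).

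Elastic fibre genes were mostly higher, 9 of 15, with 2 lower (median 0.9997). *Emilin1* rose from a D0 mean of 163 to 2110 (3.69), *Fbln2* from 2021 to 17241 (3.09) and *Mfap2* from 241 to 1067 (2.15). *Fbln1* (-0.33) and *Ltbp4* (-0.29), in a component with *Efemp2*, were lower. *Eln*, elastin itself, held 4496, 3723 and 2317 at D0 and 1610 at D10 and was not called (-1.12), and its component also held *Prkd3*.

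The small leucine-rich proteoglycans split. Of 12, 3 were called higher and 6 lower (median -0.39). *Bgn* (biglycan) rose from 3122, 2623 and 2019 to a mean of 10596 (2.03). The lower members included *Chad* (chondroadherin, of cartilage), from a D0 mean of 258 to 56.7 (-2.18). *Kera* (keratocan) had 36.9, 35.8 and 19.5 at D0 and 4.00, 2.78 and 8.94 at D10 (-2.47). *Dcn* (decorin), which limits fibril width, was lower by a smaller step, from 16240 to 11512 (-0.50).

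Basement membrane genes moved in both directions, 11 higher and 9 lower of 28 (median 0.28). *Col7a1*, the anchoring fibril collagen, rose from a D0 mean of 606 to 2993 (2.30), though its component also held *Ucn2*. The chains *Col4a3* (134 to 31.7, -2.06) and *Col4a4* (210 to 61.2, -1.77) fell. *Hspg2* (perlecan) rose from 2489 to 7955 (1.68).

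Matrix metalloproteinases cut these proteins, and 9 of 17 were called higher and 1 lower (median 1.45). *Mmp13* had 9.91, 5.11 and 2.30 normalized reads at D0 and a mean of 868 at D10 (7.14). On the log2(mean + 0.5) scale its change was 7.11, and 7.69, 7.04 and 6.76 without D0 library 1, 2 and 3 in turn. *Mmp11* (stromelysin 3) rose from 222, 228 and 156 to 3618 (4.16). The membrane-bound *Mmp14*, which activates *Mmp2*, rose from 1830 to 6679 (1.87), and *Mmp2* from 3416 to 9300 (1.44). *Mmp28* fell from 172, 214 and 156 to 84.1, 72.3 and 102 (-1.07). *Mmp27* held 182, 135 and 108 at D0 and 58.5, 112 and 76.0 at D10, which overlap, and was not called.

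Among inhibitors and plasminogen genes, 10 of 15 were higher and 3 lower (median 0.83). *Plat*, the tissue plasminogen activator, rose from 420 to 2216 (2.40). Tissue inhibitors of metalloproteinases did not move together. *Timp2* rose from 3736 to 5350 (0.52), *Timp3* fell from 3486 to 824 (-2.08), and *Timp4* fell from 100.01, 82.9 and 68.9 to 22.4, 15.8 and 27.9 (-1.91).

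Hyaluronan is a water-binding sugar polymer of soft embryonic matrix, and 8 of 16 genes that make, bind or degrade it were higher and 2 lower (median 0.80). *Has2*, a hyaluronan synthase, held 227, 184 and 232 at D0 and 593, 658 and 696 at D10. *Cemip*, which degrades hyaluronan, held 230, 219 and 283 at D0 and 791, 720 and 816 at D10. The limma changes were 1.60 with a standard error of 0.0885 for *Has2* (adjusted p 7.948e-18) and 1.67 with 0.0848 for *Cemip* (5.338e-19). The clearance receptors *Lyve1* (240 to 138, -0.80) and *Stab1* (1315 to 866, -0.60) fell.

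Genes of DNA synthesis and mitosis were mostly higher, 28 of 40, with 2 lower (median 0.81). *Ccne1*, the cyclin of entry into S phase, held 18.0, 24.5 and 13.8 at D0 and 122, 135 and 140 at D10 (2.79). *Mki67*, a marker of cycling cells, rose from 1779, 1454 and 1235 to a mean of 2477 (0.73). *Kif20a*, a kinesin of cytokinesis, rose from 147 to 431 (1.55). *Pcna*, the sliding clamp of replication, held 584, 556 and 573 at D0 and 533, 587 and 573 at D10, overlapping values, and was not called.

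The lower members were *Tpx2* (-0.50) and *Birc5* (-0.40). The *Birc5* name rests on a match of 182 bp, and the component with the best *Birc5* match was called higher by 1.81. Among cell-cycle inhibitors and pocket proteins 8 of 18 were higher and 2 lower (median 0.44). *Cdkn1c* (122 to 365, 1.58), *Cdkn2b* (69.9 to 170, 1.28) and *Cdkn1a* (208 to 409, 0.98) rose. *Cdkn1b* (725 to 550, -0.40) and *Rb1* (1120 to 687, -0.70) fell.

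Of 25 genes listed for basal and wound-edge keratinocytes, some of which other cells also express, 11 were higher and 2 lower (median 0.91). *Sprr1b*, a cornified envelope protein induced in wounded skin, rose from 20.7, 11.3 and 15.6 to a mean of 548 (5.08). *Itga5*, which forms the fibronectin receptor, rose from 252, 242 and 226 to 1942 (3.01). *Trp63*, the master regulator of stratified epithelium, fell from 2269 to 1621 (-0.49), its component also holding *Cul4b*, and *Col17a1* of the hemidesmosome fell from 6887 to 5329 (-0.37). The *Krt6a* component (31318 to 69432, 1.15) also held *Krt1*, *Krt2*, *Krt5*, *Krt6b* and *Krt75*. *Krt17*, a keratin of wounded epidermis and hair follicles, has no level of its own here. The component named *Krt15* (10348 to 8802, -0.23, not called) also held *Krt13*, *Krt14*, *Krt16* and *Krt17* sequence, and the component named *Krt17* rests on a match of 67 bp with means of 17.3 and 14.5.

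Differentiation and barrier genes also split, with 14 of 34 higher and 4 lower (median 0.32). *Rptn* (repetin), a matrix protein of the granular layer, rose from 81.1, 50.1 and 42.5 to a mean of 1099 (4.24). *Tgm3*, which cross-links the envelope, rose from 47.8, 52.2 and 75.7 to 413 (2.81). *Krt2*, a keratin of the upper epidermis, fell from 6677, 7372 and 8113 to 2755 (-1.42). The largest component named *Flg* rose by 2.43, while the best matching *Flg* component, not called, had -1.19.

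Hair genes gave few calls. Of 21, 0 were called higher and 3 lower (median -0.995), and 13 of them had means under 10. *Krt71*, a keratin of the inner root sheath, fell from 8844, 8639 and 9944 to a mean of 3666 (-1.32), its component also holding *Krt2* and *Krt77*. *Foxn1*, a regulator of hair keratinization, held 52.3, 50.1 and 51.6 at D0 and 59.3, 63.1 and 46.9 at D10 and was not called.

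Sebaceous gland lipid genes were lower as a list, 18 of 25, with 3 higher (median -0.68). *Scd1*, the delta-9 desaturase of sebum and fat, held 12472, 14828 and 7288 at D0 and 622, 463 and 757 at D10. Its limma change was -4.20 with a standard error of 0.125 (adjusted p 1.404e-26), on a match of 135 bp. *Cidea*, of lipid droplets, fell from 1009 to 392 (-1.36), *Elovl4* from 14762 to 9191 (-0.68) and *Fasn* from 16156 to 10324 (-0.65). *Fads1* (1.11) and *Fads2* (1.31), desaturases of polyunsaturated fatty acids, rose, with *Fads3* also in the *Fads2* component. Fat cells use several of these enzymes too, and adipocyte genes held 0.173% of the normalized reads at D0 and 0.0490% at D10. Their part in the lower sebaceous values was not tested.

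**Figure D3:**
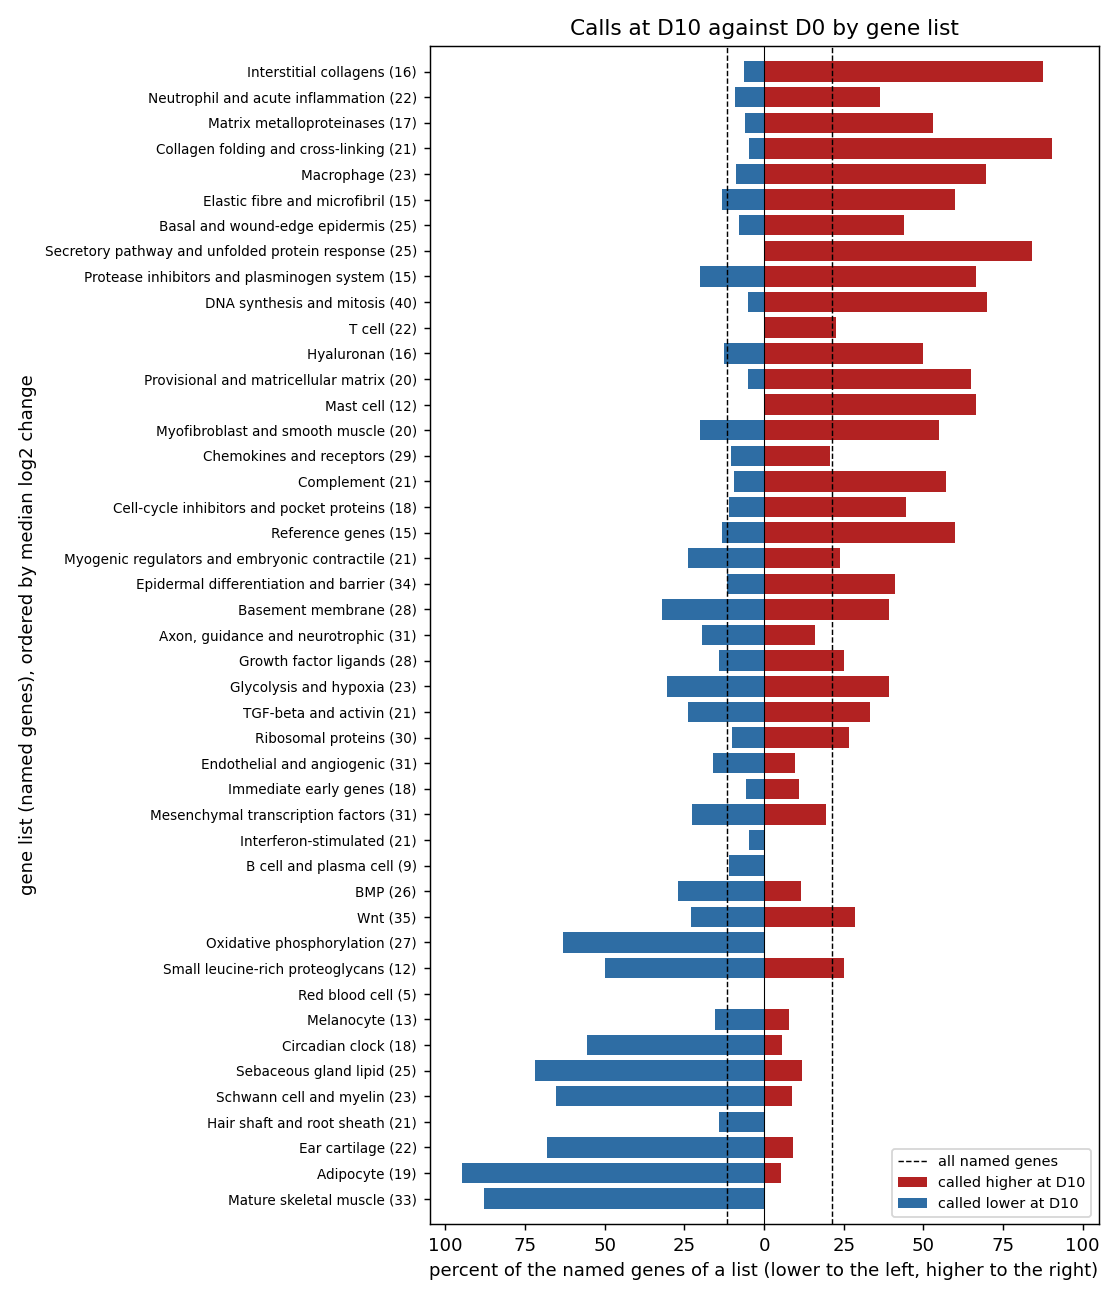
Bars give the percent of the named genes of each list that were called higher (red, right) or lower (blue, left) at D10, ordered by the median log2 change, with the number of named genes in brackets. Dashed lines are the shares over all named genes, 21.4% higher and 11.7% lower. Collagens stand at the top and skeletal muscle at the bottom.

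Signalling genes were divided within each pathway. Of 21 TGF-beta and activin genes, 7 were higher and 5 lower (median 0.10). The ligand *Tgfb3* rose from 564, 488 and 441 to a mean of 2486 (2.32), in a component that also held *Tgfb1*. The TGF-beta-induced adhesion protein *Tgfbi* rose from 3050 to 11629 (1.93). *Mstn* (myostatin), a ligand that muscle makes to limit its own growth, fell from 95.5, 88.0 and 80.3 to 6.41, 6.49 and 5.59 (-3.75). The activin antagonist *Fst* fell from 625 to 342 (-0.87).

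The BMP list had 3 higher and 7 lower of 26 (median -0.23). The ligand *Bmp4* held 91.0, 88.0 and 78.0 at D0 and 20.8, 23.2 and 32.4 at D10 (-1.73). The ligand *Gdf10* fell from 104 to 29.7 (-1.79). The antagonist *Sostdc1* fell from 555 to 201 (-1.46). The receptors *Bmpr2* (-0.04) and *Bmpr1a* (-0.22) were not called.

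Of 35 Wnt genes, 10 were higher and 8 lower (median -0.25). Ligands were called in both directions, too few to set against the 21.4% higher and 11.7% lower over all named genes. *Wnt1*, *Wnt3a* and *Wnt10b* had no named component. *Wnt2b* rose from 7.46, 8.32 and 4.59 to a mean of 41.7 (2.55), *Wnt5b* from 21.6, 20.5 and 28.7 to 132 (2.47) and *Wnt5a* from 648, 684 and 685 to 2058 (1.61). The other ligands called were *Wnt4* (0.91), *Wnt3* (-0.41) and *Wnt7b* (-0.54), which are named here after their values were seen. The secreted modulator *Sfrp2* held 323, 231 and 180 at D0 and 1345, 1496 and 1278 at D10, and its limma change was 2.52 with a standard error of 0.105 (adjusted p 9.227e-22). The related *Frzb*, an antagonist prominent in cartilage, held 447, 506 and 433 at D0 and 73.7, 101 and 83.8 at D10, a limma change of -2.42 with a standard error of 0.110 (adjusted p 1.563e-20). The inhibitors *Wif1* (2054 to 906, -1.18) and *Notum* (73.9 to 21.4, -1.77) also fell.

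Transcription factors of mesenchyme were divided as well, 6 higher and 7 lower of 31 (median -0.09). *Runx1* rose from 769, 805 and 724 to a mean of 3623 (2.24), *Runx2*, of skeletal progenitors, from 75.0 to 240 (1.67) and *Prrx1*, a blastema and limb mesenchyme marker, from 1267 to 2590 (1.03), with *Brd8* in its component. *Dlx5* fell from 79.3, 53.2 and 84.9 to 20.8, 26.9 and 22.4 (-1.62). Of the 46 factors listed, 15 had no named component, *Sall4*, *Lin28b* and *Hand2* among them.

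Among growth factors 7 of 28 were higher and 4 lower (median 0.20). *Nrg1* (neuregulin 1), a nerve and epithelial ligand of ErbB receptors, rose from 98.2, 89.0 and 86.1 to a mean of 770 (3.07). *Lif*, an interleukin 6 family cytokine, held 19.8, 20.5 and 21.8 at D0 and 87.3, 133 and 101 at D10, a limma change of 2.32 with a standard error of 0.183 (adjusted p 3.446e-13). *Igf2*, a growth factor of embryonic tissue, rose from 477 to 940 (0.98), and *Egf* fell from 191 to 78.9 (-1.27). *Igf1* held 874, 890 and 692 at D0 and 1011, 1066 and 1179 at D10 and was not called by EBSeq (0.41).

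Contractile genes of myofibroblasts and smooth muscle were higher in 11 of 20 and lower in 4 (median 0.68). *Acta2* and *Myl9* had no named component and are not among these. *Cnn1* (calponin) held 15.3, 9.21 and 11.5 at D0 and 94.5, 55.6 and 54.8 at D10 (2.47). *Tagln* (transgelin) rose from 445, 422 and 450 to a mean of 2202 (2.33). *Tpm1* fell from 10811 to 3376 (-1.68), a gene whose products skeletal muscle also uses, and *Lmod1* fell from 134 to 27.5 (-2.26).

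Mature skeletal muscle was the list with the lowest median (-2.56). Of 33 genes, 29 were called lower and 0 higher. Its components held 2.834% of the normalized reads at D0, with libraries from 2.724% to 2.949%, and 0.464% at D10. No named member was at 0 in either group. *Ttn* (titin), the spring of the sarcomere, held 208335, 202437 and 221450 normalized reads at D0 and a mean of 34837 at D10 (-2.60).

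*Pvalb* held 3864, 3815 and 4338 at D0 and 149, 224 and 164 at D10. Its limma change was -4.50 with a standard error of 0.0836 (adjusted p 1.733e-33). *Myoz1*, of the Z disc in fast fibres, fell from 1026, 1035 and 1182 to 98.5, 107 and 68.2 (-3.56). *Ryr1*, the calcium release channel, fell less, from 2906 to 1539 (-0.92), and its component also held *Chd7*. *Tnnc1*, the troponin C of slow and cardiac muscle, held 205, 180 and 161 at D0 and 182, 249 and 162 at D10 and was not called.

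Genes of muscle formation did not follow the mature list, with 5 of 21 higher and 5 lower (median 0.33). *Myog*, which drives differentiation of myoblasts, rose from 7.21, 4.09 and 4.59 to a mean of 116 (4.35). *Mymk*, needed for myoblast fusion, rose from 4.50, 6.14 and 2.30 to 83.2 (4.15). *Myl4*, an embryonic light chain, had 1.802, 1.02 and 0 at D0 and 6.41, 36.2 and 16.8 at D10 and was not called. *Sgca*, of the sarcolemma, fell from 353 to 58.0 (-2.60) and *Des* (desmin), sharing a component with *Rreb1*, from 4114 to 2598 (-0.66). The abundant *Myh3* component (-0.99) also held *Myh2* and *Myh8*, and the *Myh3* component that held neither was called higher, with 5.18.

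Adipocyte genes fell in 18 of 19 cases, with 1 higher (median -2.44). *Lep* (leptin) held 74.8, 140 and 80.3 at D0 and 8.01, 7.42 and 2.24 at D10, a limma change of -4.06 with a standard error of 0.304 (adjusted p 7.11e-14). *Aqp7*, the glycerol channel of fat cells, was even between libraries, with 134, 136 and 133 at D0 and 13.6, 17.6 and 12.3 at D10 (-3.18). *Fabp4*, the fatty acid carrier, fell from 5407 to 1723 (-1.65). *Cebpa*, which keratinocytes also use, was the member called higher (473 to 607, 0.36).

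Ear cartilage genes were lower in 15 of 22 and higher in 2 (median -1.09). *Cytl1*, a secreted protein of chondrocytes, held 2171, 1796 and 1992 at D0 and 209, 189 and 150 at D10. Its limma change was -3.45 with a standard error of 0.0843 (adjusted p 1.665e-29). *Cnmd* (chondromodulin), an inhibitor of vessel growth, held 861, 850 and 669 at D0 and 117, 106 and 126 at D10, a limma change of -2.76 with a standard error of 0.0960 (adjusted p 2.567e-24). *Acan* (aggrecan) held 5995, 5412 and 4210 at D0 and a mean of 3104 at D10 and was not called (-0.75). Both members called higher had mixed components, *Col2a1* (2.39) with *Col5a3* and *Col9a2* (1.47) with *Col18a1*, and the *Col2a1* component without another gene was called lower, at -1.21.

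Schwann cell and myelin genes were lower in 15 of 23 and higher in 2 (median -0.98). *S100b*, a calcium-binding protein of glia and chondrocytes, held 1062, 981 and 832 at D0 and 131, 136 and 146 at D10 (-2.79). The members called higher were *Ncam1* (474 to 1123, 1.24), an adhesion protein, and *Gfap*, which held 61.3, 58.3 and 42.5 at D0 and 183, 180 and 154 at D10 (1.67). *Erbb3*, the receptor for neuregulin on Schwann cells, fell from 1402 to 1034 (-0.44).

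The axon, guidance and neurotrophic list gave 5 higher and 6 lower of 31 (median 0.24, and -0.12 over the members with a mean of at least 10). *Penk*, which encodes the enkephalin precursor, had 9.01, 8.18 and 4.59 normalized reads at D0 and 275, 216 and 266 at D10 (5.05), every D10 library above every D0 library. *Lgi2*, a secreted leucine-rich repeat protein, rose from 3.60, 3.07 and 4.59 to a mean of 106 (4.69). *Nefm*, a neurofilament chain, had 3.60, 0 and 0 normalized reads at D0 and 52.9, 43.6 and 36.9 at D10, and its change on the log2(mean + 0.5) scale was 4.72, or 6.49 without D0 library 1. The contactin *Cntn1* fell from 973, 917 and 822 to 355, 364 and 292 (-1.42). *Lgi3* and *Nell1* were at a mean of 0 at D0 and at 1.48 and 2.00 at D10, too few reads for a fold. *Prph* (peripherin) held 0.901, 2.05 and 0 at D0 and 1.60, 0.927 and 2.24 at D10. Of 13 melanocyte genes 1 was higher and 2 lower (median -0.56), among them *Tyr* (tyrosinase), which fell from 87.4, 61.4 and 52.8 to 36.0, 35.2 and 33.5 (-0.94).

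**Figure D4:**
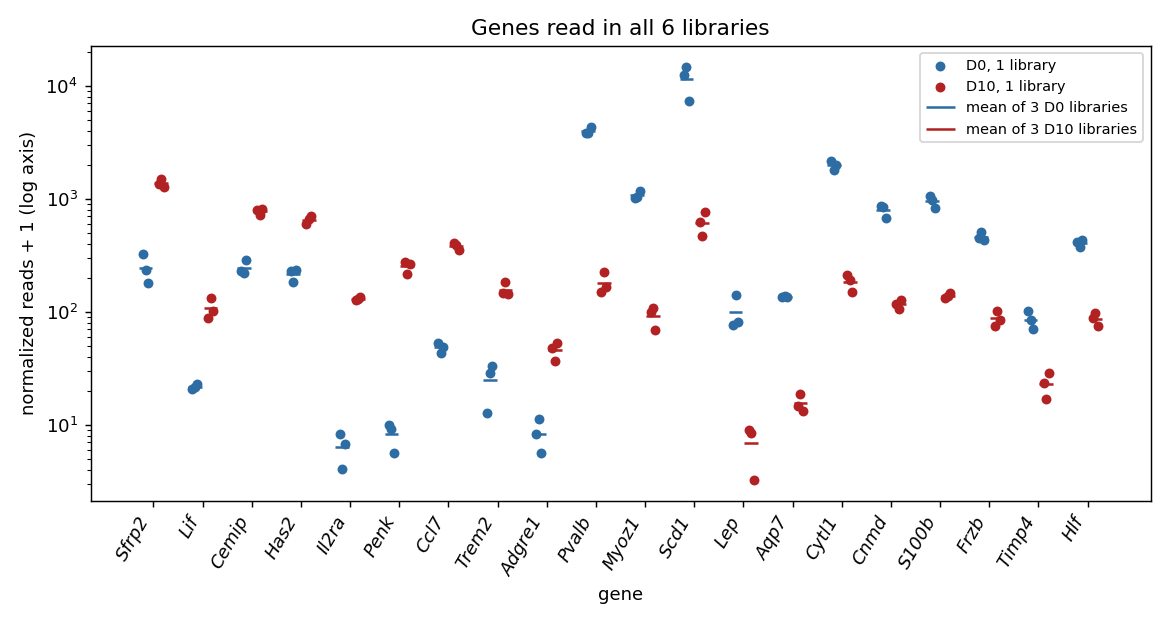
Normalized reads plus 1 on a log axis for genes read in all 6 libraries: points are single libraries (blue D0, red D10) and lines the means of 3. The D10 points of *Sfrp2* to *Adgre1* lie above all D0 points of their gene, and those of *Pvalb* to *Hlf* below.

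Macrophage genes were higher in 16 of 23 and lower in 2 (median 1.07). *Trem2*, a lipid receptor of tissue macrophages, held 11.7, 27.6 and 32.1 at D0 and 144, 181 and 143 at D10, a limma change of 2.80 with a standard error of 0.216 (adjusted p 1.695e-13). *Adgre1*, which encodes F4/80, held 7.21, 10.2 and 4.59 at D0 and 46.4, 35.2 and 51.4 at D10 (2.53). The share of normalized reads in the whole list was 0.230% at D0 and 0.223% at D10, and its most abundant member, *Apoe*, fell from 26334 to 16701 (-0.66). *Apoe* is also made by other cells. *F13a1* fell from 1519 to 918 (-0.73).

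In the neutrophil and acute inflammation list, 8 of 22 were higher and 2 lower (median 1.82). The median does not cover *S100a8*, *S100a9*, *Cxcl3*, *Mpo*, *Elane*, *Ngp*, *Retnlg*, *Ly6g* and *Fpr2*, for which no component was named. *Il1b*, a cytokine of early inflammation, rose from 4.50, 6.14 and 4.59 to a mean of 246 (5.50). Its single D10 values were not recovered, so whether a single library carries the rise cannot be seen. The neutrophil receptors *Fpr1* (0, 1.02 and 0 at D0, and 12.8, 25.04 and 23.5 at D10, in a component with *Fpr2*) and *Cxcr2* (0.901, 0 and 1.15, and 8.81, 11.1 and 22.4) were called higher, from so few D0 reads that no fold is given. The members called lower were *Camp*, an antimicrobial peptide of neutrophil granules and epithelia, from 48.7, 51.1 and 35.6 to 10.4, 9.27 and 5.59 (-2.37), and the decoy receptor *Il1r2*, from 964 to 476 (-1.02). *Csf3r*, the receptor for the neutrophil growth factor G-CSF, was at 78.6 and 86.8 on a match of 92 bp and was not called.

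D10 library 3 held the highest value of several genes of this kind. *Osm* (oncostatin M) held 6.41, 14.8 and 34.7 normalized reads in the D10 libraries, against 2.70, 3.07 and 3.44 at D0, and was not called. *Ptgs2* (cyclooxygenase 2) held 68.1, 98.3 and 529 at D10 and 54.1, 34.8 and 79.2 at D0, so the groups overlap. *Cxcl2* held 8.01, 17.6 and 101 at D10 and 3.60, 3.07 and 3.44 at D0. These last 2 were not called by EBSeq and were chosen for mention after their values were seen. Of the 3055 named genes read in all 6 libraries with a D10 mean of at least 100, *Ptgs2* was the only 1 whose coefficient of variation over the D10 libraries reached 50%.

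Chemokines and their receptors gave 6 higher and 3 lower of 29 (median 0.63). *Ccl7*, which draws monocytes, held 52.3, 41.9 and 48.2 at D0 and 407, 386 and 348 at D10, a limma change of 2.99 with a standard error of 0.121 (adjusted p 3.508e-22). *Ccl2* rose from 26.5 to 137 (2.35). *Cxcl12*, a homing factor of stroma, fell from 641 to 340 (-0.91).

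Of 22 T cell genes, 5 were higher and 0 lower (median 0.80). *Il2ra*, the high-affinity interleukin 2 receptor chain of activated and regulatory T cells, held 7.21, 3.07 and 5.74 at D0 and 127, 128 and 135 at D10. Its limma change was 4.55 with a standard error of 0.245 (adjusted p 3.412e-18). *Icos*, a T cell costimulator, rose from 7.11 to 24.4 (1.73), and *Cd8a* held 4.50, 13.3 and 4.59 at D0 and 12.8, 26.9 and 22.4 at D10 and was not called. In the B cell list 0 of 9 were higher and 1 lower, and only 2 had a mean of at least 10.

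Mast cell genes were higher in 8 of 12 and lower in 0 (median 0.71). The tryptase *Tpsab1* rose from 11.7, 11.3 and 8.03 to a mean of 235 (4.46). The protease *Mcpt4* held 707, 737 and 288 at D0 and 3882 at D10 (2.75), and *Cpa3* 561, 585 and 352 at D0 and 953 at D10 (0.93). D0 library 3 was the lowest in each of the last 2. *Slc6a4*, the serotonin transporter, held 95.5, 102 and 114 at D0 and 100.1, 93.7 and 103 at D10 and was not called.

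Of 21 interferon-stimulated genes, 0 were called higher and 1 lower (median -0.17). *Ifit1* held 114, 178 and 65.4 at D0 and a mean of 27.2 at D10 without a call (-2.12). Complement genes were higher in 12 of 21 and lower in 2 (median 0.50). *Cfb*, of the alternative pathway, rose from 9.64, 24.3 and 20.2 to a mean of 175 (3.25) and *C4b* from 934 to 3052 (1.71). *C3*, the central component, held 958, 1260 and 1039 at D0 and 3423 at D10 and was not called (1.66).

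Endothelial and angiogenic genes gave 3 higher and 5 lower of 31 (median -0.04). *Pdpn* (podoplanin), of lymphatic vessels and also of keratinocytes and fibroblasts, rose from 148, 119 and 107 to a mean of 1347 (3.43). *Vwf* rose from 772 to 1578 (1.03), and *Pecam1*, in a component with *Rbms3*, fell from 1766 to 1402 (-0.33). None of the 5 red blood cell genes named was called. *Hbb-bs*, a beta globin, held 1344, 1458 and 2601 at D0 and 1465 at D10.

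Genes of the secretory pathway and the unfolded protein response were higher in 21 of 25 and lower in 0 (median 0.86). *Sdf2l1*, of the endoplasmic reticulum chaperone complex, held 21.6, 24.5 and 17.2 at D0 and 119, 96.5 and 90.5 at D10 (2.25). The lumenal chaperones *Hspa5*, in a component with *Fhit* (2566 to 5835, 1.19), and *Calr* (3298 to 6238, 0.92) rose. *Ddit3*, a stress-induced transcription factor, held 115, 108 and 136 at D0 and 110.4 at D10 on a match of 130 bp and was not called.

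Oxidative phosphorylation genes were lower in 17 of 27 and higher in 0 (median -0.37). The lowest were the isoforms that striated muscle uses. *Cox6a2* held 648, 540 and 526 at D0 and 55.3, 33.4 and 31.3 at D10, a limma change of -3.86 with a standard error of 0.141 (adjusted p 1.271e-23). *Cox8b* (293 to 31.7, -3.19) and *Cox7a1* (337 to 37.5, -3.15) fell by similar amounts. The ubiquitous *Atp5b* fell from 6860 to 5722 (-0.26), and *Atp5a1* was at 5529 and 5545 with no call. The fall of the muscle list from 2.834% to 0.464% of reads stands beside these values, and its part in them was not tested.

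Glycolysis and hypoxia genes were divided, 9 higher and 7 lower of 23 (median 0.18). The glucose transporter *Slc2a1* rose from 598 to 1411 (1.24) and the lactate exporter *Slc16a3* from 74.3 to 170 (1.19). The muscle isoform *Pfkm* fell from 2275 to 537 (-2.08), *Aldoa*, in a component with *Aldoart1*, from 12139 to 4452 (-1.45), and *Gapdh* from 10447 to 7228 (-0.53). Among 15 genes often used as reference, 9 were higher and 2 lower (median 0.39). *Tbp* was not called, and *Gusb* rose from 232 to 482 (1.05). Ribosomal protein genes gave 8 higher and 3 lower of 30 (median 0.08, and -0.02 when centred on the median gene).

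Circadian clock genes were lower in 10 of 18 and higher in 1 (median -0.61). *Hlf*, a clock output factor, held 412, 371 and 432 at D0 and 86.5, 97.4 and 73.8 at D10, a limma change of -2.24 with a standard error of 0.110 (adjusted p 2.114e-19). *Per2* held 1039, 850 and 1254 at D0 and 394 at D10 (-1.41), and *Bhlhe41* fell from 277 to 110 (-1.33). The member called higher was *Bhlhe40* (463 to 731, 0.66). The labels give no hour of collection, so time of day and day after injury cannot be told apart here.

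Immediate early genes, which cells switch on within minutes of handling or injury, gave 2 higher and 1 lower of 18 (median -0.04). *Fosl2* rose from 1599, 1508 and 1570 to a mean of 3796 (1.28) and *Jun*, in a component with *Dcp1b*, from 420 to 861 (1.04). The D0 libraries of other members lay far apart. *Egr1* held 405, 206 and 751 at D0 and *Atf3* 106, 36.8 and 375, each highest in D0 library 3. Without that library the median of the list was 0.46, and the change of *Atf3* on the log2(mean + 0.5) scale went from -0.85 to 0.42.

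Several genes outside the lists were at the ends of the ranking. *Cdhr1*, a photoreceptor cadherin, had 7.21, 0 and 0 normalized reads at D0 and 242, 220 and 333 at D10 (6.57), and without D0 library 1 its change on the log2(mean + 0.5) scale was 9.05 in place of 6.51. *Lrrc15*, a membrane protein of activated fibroblasts, held 9.01, 11.3 and 13.8 at D0 and 256, 332 and 245 at D10 (4.57). *Prg4* (lubricin) rose from 44.0, 33.1 and 36.2 to 722 (4.24).

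The serine protease inhibitor *Spink7* had 0.901, 4.09 and 0 at D0 and 102, 83.5 and 92.8 at D10 (5.51), and without D0 library 2 its change on the log2(mean + 0.5) scale was 6.62 in place of 5.43. *St6galnac1*, a sialyltransferase, had 0, 1.02 and 1.15 at D0 and a mean of 53.9 at D10. At the other end were *Afp* (alpha-fetoprotein), from 144, 142 and 106 to 12.8, 9.27 and 4.47 (-3.83), and *Nos1*, a nitric oxide synthase, from 76.6, 73.6 and 59.7 to 6.41, 7.42 and 3.35 (-3.52). *Clcn1* (-3.80), *Mylk4* (-3.77), *Ano5* (-3.43) and *Ppp1r3a* (-3.43), genes used in skeletal muscle, were also near that end.

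The other days were compared with the same D0 libraries, so their values are given side by side with no test. The interstitial collagen median, 2.17 at D10, was 0.25 on D5, 2.26 on D15 and 2.21 on D20. The neutrophil and acute inflammation median, 1.82 at D10, was 4.29 on D5, 0.29 on D15 and 0.46 on D20. In day order, cell division genes had medians of 1.64, 0.81, 0.87 and 0.77, and macrophage genes 1.95, 1.07, 0.59 and 0.27.

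Single genes can be set beside these medians. *Col1a1*, in a component with *Casz1*, was at -0.58 on D5 without a call, 2.08 at D10, 2.96 on D15 and 2.51 on D20. *Mmp11* was at 0.41 on D5 without a call, 4.50 on D15 and 3.93 on D20. *Il1b* was at 10.14 on D5 and 3.12 on D15. *Myog* stood at 2.81 on D5, 4.04 on D15 and 2.26 on D20, the last without a call. Mature muscle had medians of -3.02, -2.56, -2.37 and -3.37 in day order.

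**Figure D5:**
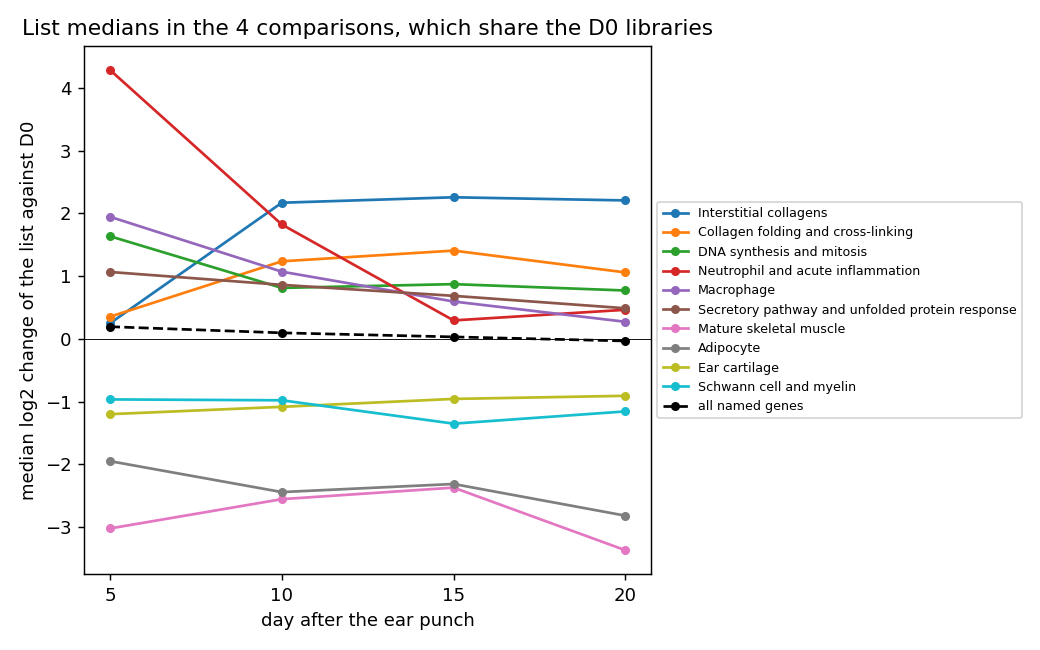
The median log2 change against D0 of 10 gene lists and of all named genes (dashed) at 5, 10, 15 and 20 days after the punch, on an axis of log2 units. All 4 comparisons share the D0 libraries. Collagens go from 0.25 at D5 to 2.17 at D10, while the neutrophil list goes from 4.29 to 1.82.

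Of the called components, 7888 had no gene name, 4443 higher and 3445 lower. The most abundant, a contig of 572 bp, held 230196, 263825 and 278224 normalized reads at D0 and a mean of 379675 at D10 (0.56). The next, of 346 bp, held 235243, 223514 and 242308 at D0 and 147722 at D10 (-0.66). A contig of 1871 bp held 748, 1209 and 1515 at D0 and 11448 at D10 (3.31), the largest change among the 10 most abundant. Unnamed components held a large part of the libraries, and components without any BLASTN hit had 36.6% of the normalized reads at D0 and 35.9% at D10.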

How the data were processed

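RNA-seq of ear tissue from *A. cahirinus* was used, with the D0 and D10 samples as the groups and the other days given beside them. Per the methods, the authors assembled the reads *de novo* with Trinity, estimated abundance with RSEM and compared each day with D0 by EBSeq. The deposited ratio columns hold fold changes of D0 over the later day, and the deposited posterior probabilities of a difference are a score from 0 to 1. The authors' BLASTN table of spiny mouse contigs against *M. musculus* transcripts gives the percent identity, alignment length and bit score of each hit. These fold changes and probabilities are the authors' own comparison, so the calls are EBSeq's. The tables of *M. musculus* samples were not analysed here.

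The log2 change is minus the log2 of the deposited posterior fold change, and calls needed a posterior probability of 0.95 or more. The means follow from the 2 fold columns, which add different constants. Reads per library were recovered from the means across the tables as whole reads or hundredths, and the procedure was tested on simulated data. All 3 D10 libraries were recovered for 585120 of the 638311 components tried. Whole reads were tried up to a D10 mean of 3000, or 1000 where D0 reads were not whole. Hundredths of a read were tried up to a mean of 20, in named components only. Components above these limits or without a solution have a D10 mean alone, and the limma results leave them out. Some are of low level, such as *Icos* (D10 mean 24.4) and *Lgi2* (106). Each component took the name of its hit with the top bit score, leaving out hits of 99% identity or more, and a gene was taken as also present where it had a bit score of at least 200 elsewhere on the contig. Limma 3.58.1 in R 4.3.3, with a trend, was run on log2(value + 0.5). It took the 116409 components with all 6 libraries recovered and a mean over both groups of at least 10. Benjamini-Hochberg adjustment and a threshold of 0.05 were used. Python 3.11.15, NumPy 2.4.6 and pandas 2.3.3 were used. Gene symbols came from matching the *M. musculus* transcripts to GENCODE M21 with minimap2 2.31, which matched 52810 of 61642 (85.7%). Limma's standard errors and p-values use a variance drawn toward a trend over all components tested. They are thus not the spread of a gene's own libraries alone. As nothing ties a library to an animal, they concern these libraries and not known animals.

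The comparison, the gene lists and the tests were chosen with earlier results of these data known. Genes were named in the text if the study names them, if they had the 3 highest or 3 lowest changes or 2 highest means of a list at a mean of at least 10, or if they were among the 25 highest or 25 lowest called changes at a mean of at least 50. The 10 most abundant unnamed called components were added. No *A. cahirinus* genome was used, so no coordinates are given, and some genes that the rule picked are not reported here. Alternatives were another threshold, a least change, filters on low means and short hits, other ways to name a component or stand for a gene, another fold column, a pseudocount, centring, limma, and leaving out libraries.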

Additional observations from a re-analysis of the deposited data

How the results depend on the processing

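With a least log2 change of 1, 8465 components were called (5049 higher, 3416 lower) and 1626 named genes (1014 higher, 612 lower). Limma, added after the data were seen, called 30954 components where EBSeq called 7568, and 2986 named genes (1687 higher, 1299 lower) where EBSeq called 1610 (918 higher, 692 lower). With each library left out in turn, limma called 2663 to 2826 named genes, 1475 to 1618 higher and 1155 to 1208 lower, while EBSeq could not be refitted. Some names turned direction with the component that stood for them. With the highest bit score *Birc5* was at 1.81, *Myh3* at 5.18, *Flg* at -1.19 and *Smad3* at 0.0505, and with the sum of components *Birc5* was at 0.0747. With components that also hold another gene left out, an alternative added later, *Myh3* was at 5.18 and *Col2a1* at -1.21. Of the 355 named genes, 38 moved by more than 1 SD over the D0 libraries with the sum of components. By the same measure list medians moved in 18 of 45 lists when centred, in 10 without components that also hold another gene and in 8 without D0 library 3. List medians that changed sign were mesenchymal transcription factors (0.02 as a sum), axon genes (-0.12 at a mean of at least 10), ribosomal proteins (-0.02 when centred) and immediate early genes (0.14 by bit score, 0.12 as a sum and 0.46 without D0 library 3, added later). No paired analysis was possible because the libraries carry no labels. Depth limits genes with few reads at D0, and the changes given for *Cdhr1*, *Nefm* and *Spink7* rest on few D0 reads.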

Other observations

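Genes that EBSeq did not call often passed limma, which called 2986 of the 5285 named genes tested (56.5%) where EBSeq called 1610. The genes below were chosen from these after their values were seen. *Fgf10*, a mesenchymal growth factor, had a limma log2 change of -2.70 with a standard error of 0.424 (adjusted p 3.741e-06). *Sfrp5*, a Wnt modulator, had -1.79 with 0.2625 (adjusted p 1.11e-06), and *Col4a6*, a basement membrane chain, -1.82 with 0.261 (adjusted p 7.06e-07). *Uchl1*, a neuronal ubiquitin hydrolase, had a limma change of 2.07 (adjusted p 2.597e-07). The cause of the difference between the tools was not tested.

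D10 library 3 also held the highest values of *Trem1* (0.801, 3.71 and 32.4 normalized reads over the D10 libraries) and *Mefv* (7.21, 5.57 and 53.7), both genes of myeloid cells. Neither was called, and both were chosen after their values were seen.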
